A study of Hevea brasiliensis with 2 samples.

Results

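The enzymes and small proteins that make, remove and buffer reactive oxygen species were examined in the latex of 2 rubber tree (Hevea brasiliensis) clones. Latex flows from cut laticifers, the rubber-making vessels of the bark, and carries much of their cell content with it. In the authors' table of 6726 unigenes called different between the clones, 58 unigenes carried a peroxidase, peroxiredoxin, superoxide dismutase, catalase, glutathione, thioredoxin, glutaredoxin, ascorbate or respiratory burst name in the best Nr or Swissprot hit. They are 58 of 51192 unigenes in all. A unigene is a transcript assembled from the reads without a genome, so it has no chromosome position.

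The library of PR107 and the library of CATAS8-79, labelled RY8-79 in the sample records, each came from 1 pool of latex from 5 trees at tapping 1, untreated and not tapped before. The sample labels give the trees an age of 3 years and the paper's methods give 7 years. Reads counted on unigenes summed, in units of 1000000, to 6.87 in PR107 and 6.92 in CATAS8-79. With 1 library per clone there was no replicate check, and each difference is between these libraries, not between the clones. For the tissue, Unigene37703, which the paper names as the latex allergen Hev b 7, had 422 reads in PR107 and 397 in CATAS8-79. Among the called unigenes, the search words for laticifer markers found 3, with 523 reads in PR107 and 583 in CATAS8-79 together but in opposite directions. The small rubber particle protein (Unigene823) had 274 reads in PR107 and 51 in CATAS8-79, a log2 ratio of 2.44. The enolase allergen (Unigene3181) had 57 reads in PR107 and 115 in CATAS8-79, and the patatin (Unigene27171) had 192 reads in PR107 and 417 in CATAS8-79. The best Nr hit of the patatin is from Arabidopsis, and whether these unigenes mark laticifers was not tested. The search words for green tissue found 2, also opposed. A light-harvesting protein (Unigene12717) had 38 reads in PR107 and 147 in CATAS8-79, and a Rubisco small subunit (Unigene43787) had 256 reads in PR107 and 71 in CATAS8-79. The part of these markers in the results was not tested. The search words found no called unigene for rubber elongation factor, hevein or rubber transferase. The paper, however, reports a Hevea rubber transferase unigene as differentially expressed. In pooled latex, fewer cells of a type and less RNA per cell cannot be told apart.

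Plant cells form superoxide on purpose through the NADPH oxidases of the plasma membrane, the respiratory burst oxidase homologs. Superoxide dismutase converts superoxide to hydrogen peroxide, which ascorbate peroxidase, peroxiredoxins and catalase then remove. Ascorbate and glutathione carry the electrons for part of this removal and are reduced again by monodehydroascorbate reductase and glutathione reductase. Thioredoxins and glutaredoxins reduce disulfides in proteins. In latex, peroxide and superoxide are known to damage the membrane of the lutoids, the vacuole-like bodies whose bursting starts the clotting of rubber particles.

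Of the members, Unigene18915 (ascorbate peroxidase) has a primer pair in the study's supplementary tables, the only designed sequences found there for a member. They are shown because they mark the stretch of this transcript that the study measured by qRT-PCR, which was not analysed here. Both are written 5′ to 3′ in lower case, with no part marked.
forward: attgctgatcccgtctt
reverse: gtcggcaccatcctcta

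The members were chosen from a table that the authors had filtered by the same comparison, at FDR ≤ 0.001 and |log2 Ratio| ≥ 1. Each member therefore had to differ between the libraries, and the values below are descriptions with no test. The log2 ratio is that of RPM (reads per 1000000 counted reads), PR107 over CATAS8-79. Its interval is the exact Clopper-Pearson interval at 95%, which covers counting error only. RPKM is RPM per kilobase of unigene and was used wherever levels of different unigenes were compared. A count of 0 allows up to 3 reads, an RPM of 0.437 in PR107 and 0.434 in CATAS8-79. The smallest log2 ratios among the members were -1.07 for Unigene16490 (93 reads in PR107 and 197 in CATAS8-79) and 1.08 for Unigene11672 (617 reads in PR107 and 294 in CATAS8-79). Just outside, Unigene2010 had 201 reads in PR107 and 405 in CATAS8-79. Unigenes outside the table carry no best hit in the files used here, so redox unigenes that missed the thresholds could not be counted.

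PR107 had the higher RPM for 31 of the 58 members, and CATAS8-79 for 27. The authors' table holds 13.1% of all unigenes. By the reads in its columns, 7.25% of all unigenes were called and higher in PR107 and 5.89% were called and higher in CATAS8-79, so 55.1% of the called unigenes were higher in PR107. As the members divide into opposite directions, their median log2 ratio of 1.15 describes few of them, and the median absolute log2 ratio was 1.97, against 1.78 for all called unigenes. Over 48899 unigenes with more than 3 reads in at least 1 library the median log2 ratio was 0.04, and 30.2% reached a log2 ratio of 1 in either direction. The 58 members had a median length of 439 bp and ran from 206 bp to 3848 bp. In 9 members one of the libraries had 3 or fewer reads, and in 4 of these it had none.

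**Figure D1:**
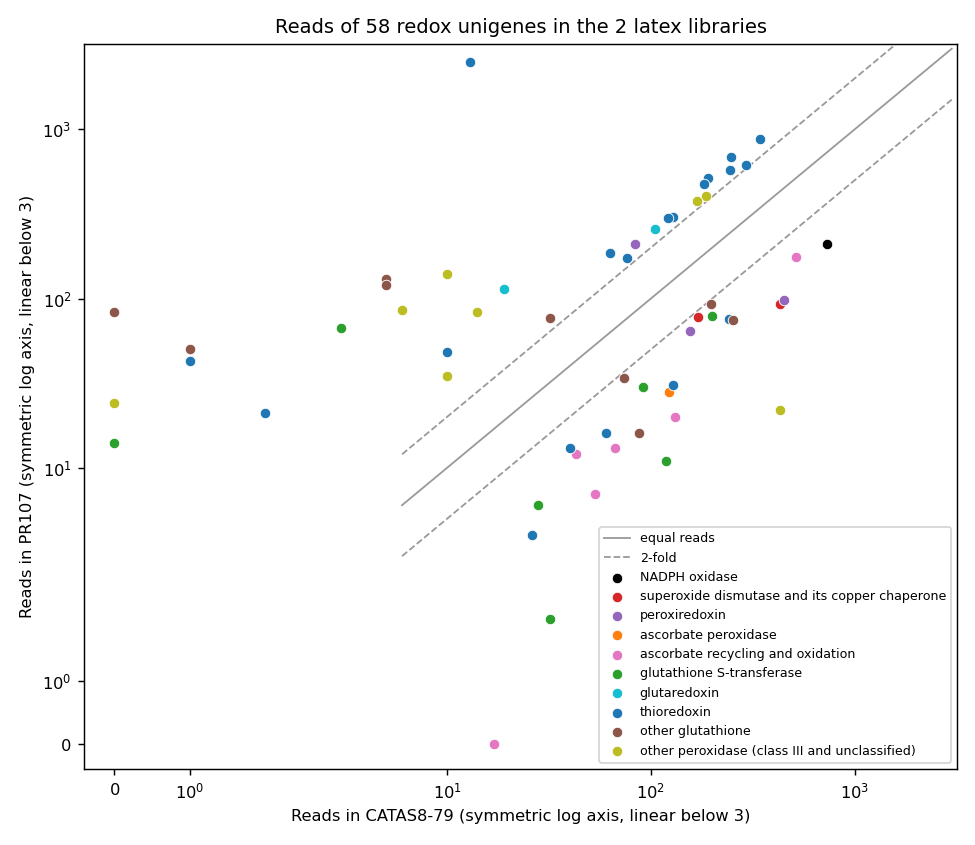
Reads of each of the 58 redox unigenes in PR107 (vertical axis) and CATAS8-79 (horizontal axis), both on a symmetric log scale, coloured by enzyme class. No point lies between the dashed 2-fold lines, since the members were chosen that way, and Unigene34674 (thioredoxin) stands apart with 2503 reads in PR107 and 13 in CATAS8-79.

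The direction of the members varied with enzyme class. The NADPH oxidase, the superoxide dismutase and its copper chaperone, the ascorbate peroxidase, and the ascorbate recycling and oxidation class gave 10 unigenes. All 10 were higher in CATAS8-79. Of them, 5 are L-ascorbate oxidase homologs, which may not act on ascorbate. Together the 10 had 639 reads in PR107 and 2282 in CATAS8-79, a log2 ratio of -1.82 (interval -1.95 to -1.70). These were the only classes without a member higher in PR107, so the shared direction and the summed ratio follow from grouping them. Glutathione S-transferases were higher in CATAS8-79 in 5 of 7 unigenes and peroxiredoxins in 2 of 3. In contrast, 14 of 19 thioredoxin unigenes, both glutaredoxins and 7 of 8 other peroxidases were higher in PR107. Of these 7 peroxidases, 5 carry unigene numbers from 40540 on, a stretch in which 90.7% of the called unigenes were higher in PR107. Likewise 4 of the 5 transferases and 3 of the 6 ascorbate recycling and oxidation unigenes that were higher in CATAS8-79 carry numbers from 29887 to 40539, where 80.7% of the called unigenes were higher in CATAS8-79. The classes were set with earlier results of these libraries known. Their directions are counts over called unigenes, of which 55.1% were higher in PR107.

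**Figure D2:**
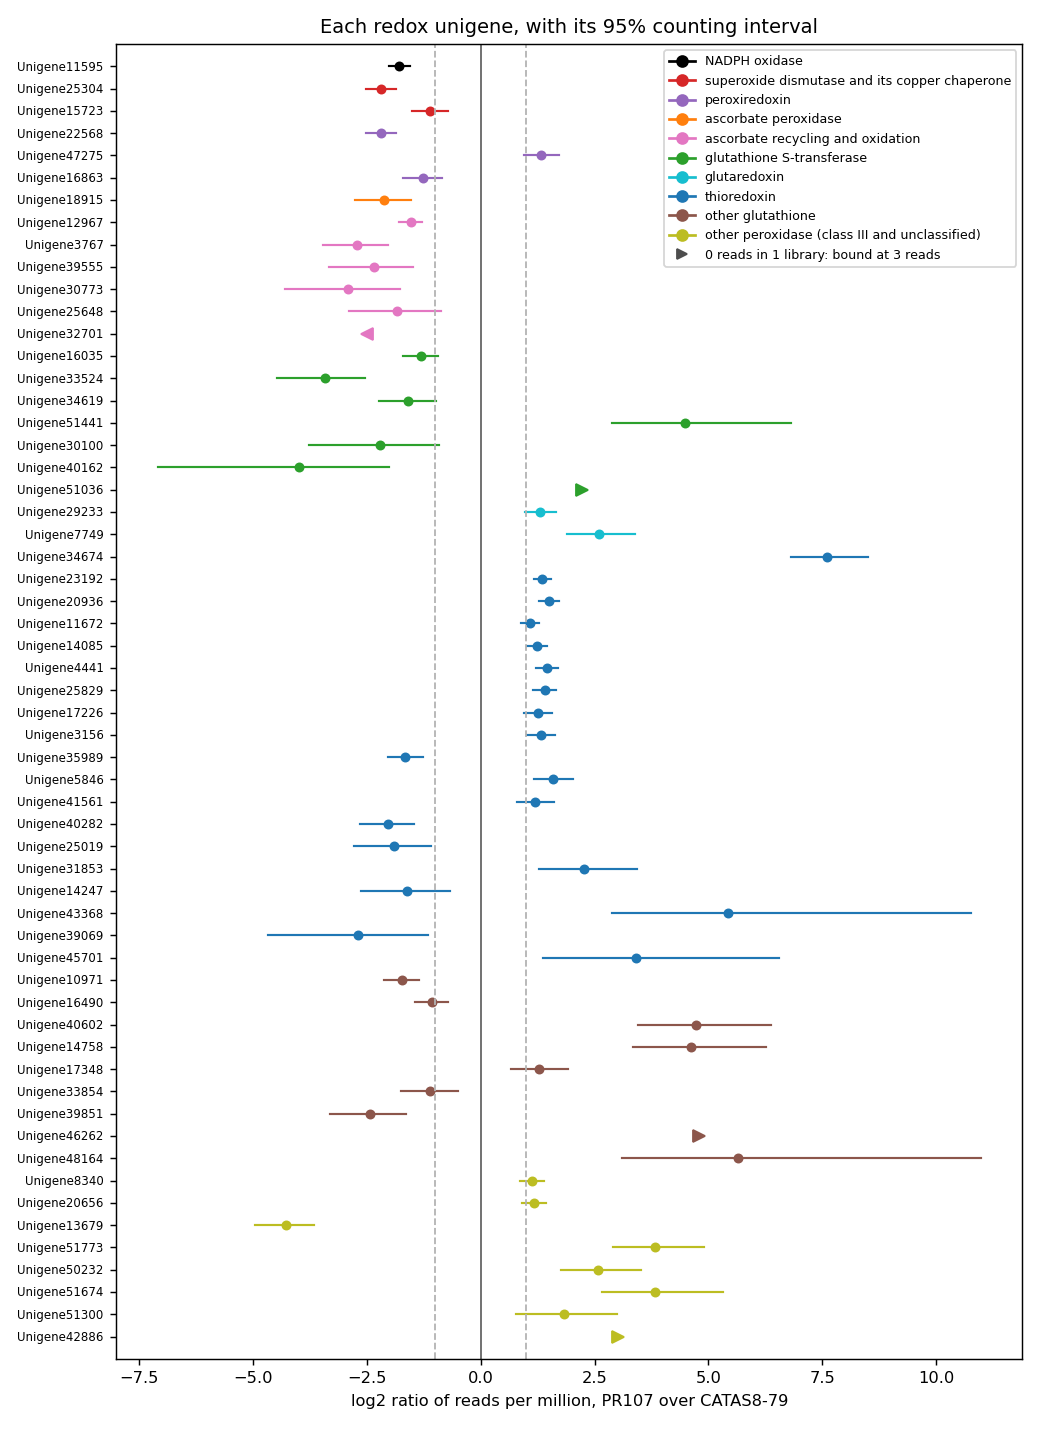
The log2 ratio of RPM, PR107 over CATAS8-79, of each redox unigene with its 95% counting interval, grouped and coloured by enzyme class, with triangles where 1 library had 0 reads. The 10 unigenes of the NADPH oxidase, superoxide dismutase, ascorbate peroxidase, and ascorbate recycling and oxidation classes all lie left of 0. These are the classes without a member higher in PR107. Most of the thioredoxins lie right of 0.

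The source of superoxide among the members was Unigene11595, a respiratory burst oxidase homolog and, at 3848 bp, the longest of the 58. It was read 211 times in PR107 and 733 times in CATAS8-79. Its level was 7.99 RPKM in PR107 and 27.5 RPKM in CATAS8-79, a log2 ratio of -1.79 (interval -2.01 to -1.56). In PR107 38.8% of all unigenes had a lower RPKM, against 68.2% in CATAS8-79.

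Unigene25304, whose best Nr hit is the Cu/Zn superoxide dismutase of H. brasiliensis, was the most abundant antioxidant enzyme of CATAS8-79 among the members by RPKM. It had 93 reads in PR107 and 428 in CATAS8-79, which is 55.5 RPKM in PR107 and 253.5 RPKM in CATAS8-79. In PR107 82.1% of all unigenes had a lower RPKM, against 97.8% in CATAS8-79. Its log2 ratio was -2.19 (interval -2.53 to -1.87), so its transcript was 4.57-fold higher in CATAS8-79. The unigene is only 244 bp long and may hold part of the transcript. Unigene15723 (878 bp) encodes not the enzyme but the copper chaperone that delivers copper to it. It had 78 reads in PR107 and 170 in CATAS8-79, a smaller log2 ratio of -1.11 (interval -1.52 to -0.72). The intervals of the enzyme and its chaperone, which cover counting error only, did not overlap.

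Unigene18915 is annotated as a cytosolic L-ascorbate peroxidase, which uses ascorbate to reduce hydrogen peroxide to water. Only 28 reads were counted in PR107 and 123 in CATAS8-79. The level was low in PR107, at 6.80 RPKM, where 34.6% of all unigenes were lower, and 29.6 RPKM in CATAS8-79, where 69.7% were lower. Its log2 ratio was -2.12 (interval -2.77 to -1.52). It is the only ascorbate peroxidase among the called unigenes. No catalase and no glutathione peroxidase was among the members, which says only that no unigene with such a name passed the authors' thresholds.

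The ascorbate recycling and oxidation class held 6 members. Unigene12967, a monodehydroascorbate reductase, returns oxidised ascorbate to its reduced form and had 177 reads in PR107 and 516 in CATAS8-79. Its level was 17.7 RPKM in PR107 and 51.1 RPKM in CATAS8-79, a log2 ratio of -1.53 (interval -1.79 to -1.28). The other 5 unigenes are annotated as L-ascorbate oxidase homologs, and their Nr hits are a multicopper oxidase or PS60 of tobacco. Such proteins belong to the multicopper oxidase family, and the name rests on similarity, so they may not act on ascorbate.

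All 5 homologs had few reads in PR107. Unigene3767 had 20 reads in PR107 and 132 in CATAS8-79. Unigene39555 had 13 reads in PR107 and 67 in CATAS8-79. The next pair was as uneven. Unigene30773 had 7 reads in PR107 and 53 in CATAS8-79. Unigene25648 had 12 reads in PR107 and 43 in CATAS8-79. Unigene32701 had 0 reads in PR107 and 17 in CATAS8-79, at least 5.62-fold lower in PR107. None of the 5 was higher in PR107. Summed, the homologs had 52 reads in PR107 and 312 in CATAS8-79, a log2 ratio of -2.57 (interval -3.03 to -2.15). Unigene3767, Unigene39555 and Unigene32701 share a Swissprot hit, and Unigene30773 and Unigene25648 share another. Nr pairs them otherwise, Unigene3767 with Unigene32701 under PS60 and the other 3 under a multicopper oxidase, and the 5 unigenes may be pieces of fewer genes.

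Peroxiredoxins reduce hydrogen peroxide and organic peroxides with the help of thioredoxin. Unigene22568, a mitochondrial peroxiredoxin of type IIF, had 98 reads in PR107 and 448 in CATAS8-79, a log2 ratio of -2.18 (interval -2.51 to -1.86). Unigene16863, a 2-Cys peroxiredoxin of the chloroplast type, had 64 reads in PR107 and 156 in CATAS8-79, a log2 ratio of -1.27 (interval -1.72 to -0.85). Unigene47275, which has no Swissprot hit and is 212 bp long, went the other way, with 209 reads in PR107 and 84 in CATAS8-79 and a log2 ratio of 1.33 (interval 0.95 to 1.71). The organellar types were higher in CATAS8-79 and the unplaced fragment was higher in PR107. Unigene47275 lies in the stretch of unigene numbers from 40540 on, where 90.7% of the called unigenes were higher in PR107. The sum over the class was -0.88 in log2 (interval -1.07 to -0.70), and it depended on single members. Without Unigene22568 it was 0.20 (interval -0.06 to 0.45), and without Unigene47275 it was -1.89 (interval -2.15 to -1.64).

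Thioredoxins made up the largest class, with 19 unigenes, 7466 reads in PR107 and 2413 in CATAS8-79. The sum gave a log2 ratio of 1.64 (interval 1.57 to 1.71). Unigene34674 alone held 33.5% of the class's reads in PR107 and 0.539% in CATAS8-79. Without it the other 18 unigenes had 4963 reads in PR107 and 2400 in CATAS8-79, or 1.06 in log2 (interval 0.99 to 1.13). Of these 18, 13 were higher in PR107.

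Unigene34674 (443 bp) had the largest log2 ratio of the members with reads in both libraries. Its best Nr hit is thioredoxin h of H. brasiliensis, the cytosolic kind of thioredoxin, and its best Swissprot hit is Thioredoxin-like 4 of Arabidopsis. It had 2503 reads in PR107 and 13 in CATAS8-79, which is 823 RPKM in PR107 and 4.24 RPKM in CATAS8-79. By RPKM it stood at rank 42 of all unigenes in PR107 and at rank 38005 in CATAS8-79. The log2 ratio was 7.60 (interval 6.82 to 8.51), a 194.0-fold higher level in PR107. Unigene40282 has the same best hit in Nr and in Swissprot and was lower in PR107, with 31 reads in PR107 and 128 in CATAS8-79, a log2 ratio of -2.04 (interval -2.65 to -1.46). Added together, these unigenes had 2534 reads in PR107 and 141 in CATAS8-79, a log2 ratio of 4.18 (interval 3.93 to 4.43). Whether both come from the same gene was not tested.

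The h-type unigenes Unigene20936, Unigene14085 and Unigene25829 were abundant in both clones. Unigene20936 had 690 reads in PR107 and 247 in CATAS8-79. Unigene14085 had 573 reads in PR107 and 244 in CATAS8-79. Unigene25829 had 478 reads in PR107 and 182 in CATAS8-79. All were higher in PR107 by a similar ratio. Their levels lay between 287 and 338 RPKM in PR107 and between 102.0 and 128 RPKM in CATAS8-79, and their log2 ratios between 1.24 and 1.49. Unigene20936 is 350 bp long, Unigene14085 288 bp and Unigene25829 206 bp. Unigene20936 and Unigene25829 share a best Swissprot hit, and all of these may be pieces of fewer genes. Without Unigene34674 the h-type unigenes summed to 1772 reads in PR107 and 801 in CATAS8-79, a log2 ratio of 1.16 (interval 1.04 to 1.28).

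TTL proteins join tetratricopeptide repeats to a thioredoxin-like domain. Unigene23192 (1618 bp) had 872 reads in PR107 and 345 in CATAS8-79, a log2 ratio of 1.35 (interval 1.17 to 1.53). Unigene11672 (1645 bp) had 617 reads in PR107 and 294 in CATAS8-79. Both have TTL1 of Arabidopsis as the best Nr hit. Unigene14247, whose hit is TTL3, was the exception, with 13 reads in PR107 and 40 in CATAS8-79. Both TTL1 unigenes are named DnaJ homologs by Swissprot, so the thioredoxin name comes from Nr alone.

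The 4 thioredoxins and partners named as chloroplast proteins were also higher in PR107. Unigene41561, annotated in Swissprot as the variable chain of ferredoxin-thioredoxin reductase, which passes electrons from ferredoxin to thioredoxin, had 173 reads in PR107 and 76 in CATAS8-79. Unigene31853, of the same annotation, had 48 reads in PR107 and 10 in CATAS8-79. The Nr hit of both is a lipoic acid synthase-like protein. Unigene5846, Thioredoxin-like 6, had 187 reads in PR107 and 63 in CATAS8-79. Unigene45701, an f-type thioredoxin, had 21 reads in PR107 and 2 in CATAS8-79, and the interval of its log2 ratio of 3.40 ran from 1.37 to 6.54.

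The remaining thioredoxin-fold unigenes divided. Unigene4441 (thioredoxin II) had 518 reads in PR107 and 191 in CATAS8-79. Unigene17226 (thioredoxin domain-containing protein 15) had 302 reads in PR107 and 128 in CATAS8-79. Unigene3156 (Thioredoxin-like 1) had 301 reads in PR107 and 122 in CATAS8-79. These were well read in both libraries, unlike the next. Unigene43368 had 43 reads in PR107 and 1 in CATAS8-79, a log2 ratio of 5.44 (interval 2.88 to 10.8). The other 3 were higher in CATAS8-79. Unigene35989, a RING-type zinc finger with a thioredoxin-related name, had 76 reads in PR107 and 241 in CATAS8-79. Unigene25019 had 16 reads in PR107 and 60 in CATAS8-79. Unigene39069 had 4 reads in PR107 and 26 in CATAS8-79. These 3 have no Swissprot hit, and neither have Unigene4441 and Unigene43368 above, so all these names rest on Nr only. The thioredoxin name of Unigene17226 comes from Swissprot alone.

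Both glutaredoxins, which use glutathione to reduce disulfides or carry iron-sulfur clusters, were higher in PR107. Unigene7749 (glutaredoxin C3) had 114 reads in PR107 and 19 in CATAS8-79, which is 55.9 RPKM in PR107 and 9.25 RPKM in CATAS8-79, a log2 ratio of 2.60 (interval 1.89 to 3.38). Unigene29233, a monothiol glutaredoxin of the chloroplast type, was more abundant, with 258 reads in PR107 and 105 in CATAS8-79, and its log2 ratio was 1.31 (interval 0.98 to 1.65). The less abundant glutaredoxin had the larger ratio, and the intervals, which cover counting error only, did not overlap.

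**Figure D3:**
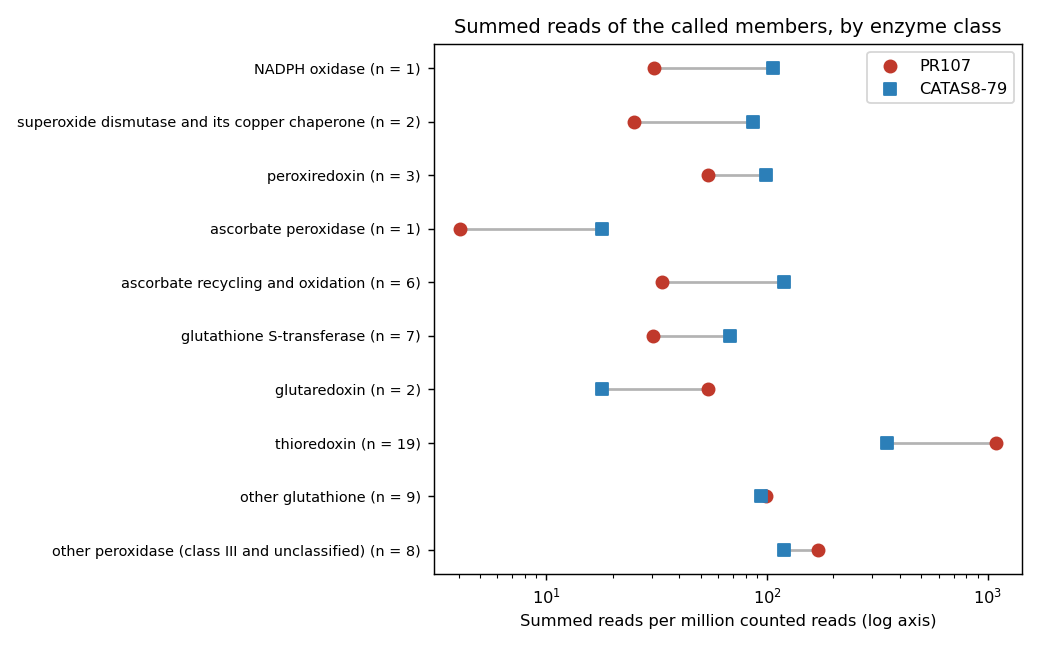
Summed RPM of the called members of each enzyme class (log axis), with PR107 as circles and CATAS8-79 as squares. Thioredoxins reached 1087 RPM in PR107 and 349 RPM in CATAS8-79, glutaredoxins and the other peroxidases were also higher in PR107, and the NADPH oxidase, superoxide dismutase and ascorbate classes were higher in CATAS8-79.

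Glutathione S-transferases attach glutathione to reactive compounds. Unigene16035, of the tau class, had the most reads, 79 in PR107 and 199 in CATAS8-79, a log2 ratio of -1.32 (interval -1.72 to -0.94). Unigene34619, of the phi class, had 30 reads in PR107 and 91 in CATAS8-79. Unigene40162, also tau, had 2 reads in PR107 and 32 in CATAS8-79, or -3.99 in log2 (interval -7.10 to -2.02, the widest of the transferases with reads in both libraries). Unigene30100, of the omega class by Nr, had 6 reads in PR107 and 28 in CATAS8-79.

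The theta class, so named by mouse proteins in Swissprot, gave the sharpest contrast among the transferases. Unigene33524 had 11 reads in PR107 and 119 in CATAS8-79, a log2 ratio of -3.42 (interval -4.47 to -2.53). Unigene51441, with the same best Nr hit from Euphorbia esula, had 67 reads in PR107 and 3 in CATAS8-79, a log2 ratio of 4.49 (interval 2.88 to 6.81). The sum of the pair was 78 reads in PR107 and 122 in CATAS8-79, a log2 ratio of -0.63 (interval -1.06 to -0.21), smaller than that of either. Unigene33524 lies in the stretch of unigene numbers where 80.7% of the called unigenes were higher in CATAS8-79. Unigene51441 lies in that where 90.7% were higher in PR107. Whether the pair comes from 1 gene was not tested. Unigene51036 had 14 reads in PR107 and 0 in CATAS8-79, at least 4.70-fold higher in PR107.

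Glutathione reductase keeps glutathione reduced with electrons from NADPH. Unigene10971 and Unigene16490 were lower in PR107. Their best Nr hit is the glutathione reductase of H. brasiliensis, and their best Swissprot hit is the cytosolic enzyme of Arabidopsis. Unigene10971 had 75 reads in PR107 and 252 in CATAS8-79, a log2 ratio of -1.74 (interval -2.13 to -1.36). Unigene16490 had 93 reads in PR107 and 197 in CATAS8-79. They may be pieces of 1 gene. The chloroplast form, Unigene17348, was higher in PR107, with 77 reads in PR107 and 32 in CATAS8-79 and a log2 ratio of 1.28 (interval 0.67 to 1.92). The forms that Swissprot names cytosolic and chloroplastic therefore went in opposite directions.

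Lactoylglutathione lyase, or glyoxalase I, uses glutathione to clear methylglyoxal, a toxic by-product of glycolysis. Of its 4 unigenes, 3 were almost unread in CATAS8-79. Unigene40602 had 131 reads in PR107 and 5 in CATAS8-79. Unigene14758 had 121 reads in PR107 and 5 in CATAS8-79. Unigene48164 had 50 reads in PR107 and 1 in CATAS8-79. Their log2 ratios were 4.72 for Unigene40602, 4.61 for Unigene14758 and 5.65 for Unigene48164 (lower end of its interval 3.11). The exception was the probable chloroplast enzyme. Unigene33854 had 34 reads in PR107 and 74 in CATAS8-79. The Nr hit of Unigene48164 is a calmodulin binding protein, so its annotation is mixed. Summed, the 4 had 336 reads in PR107 and 85 in CATAS8-79, a log2 ratio of 1.99 (interval 1.65 to 2.35).

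S-formylglutathione hydrolase acts in the glutathione-dependent removal of formaldehyde. Unigene46262 had 83 reads in PR107 and 0 in CATAS8-79, at least 27.9-fold higher in PR107. Unigene39851 has the same best hits and had 16 reads in PR107 and 87 in CATAS8-79, a log2 ratio of -2.43 (interval -3.30 to -1.65). The pair summed to 99 reads in PR107 and 87 in CATAS8-79, a log2 ratio of 0.20 (interval -0.23 to 0.63), so no difference of the sum was detectable at this depth. Unigene39851 lies in the stretch of numbers where most called unigenes were higher in CATAS8-79, and Unigene46262 in that where most were higher in PR107. Whether both come from 1 gene was not tested.

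**Figure D4:**
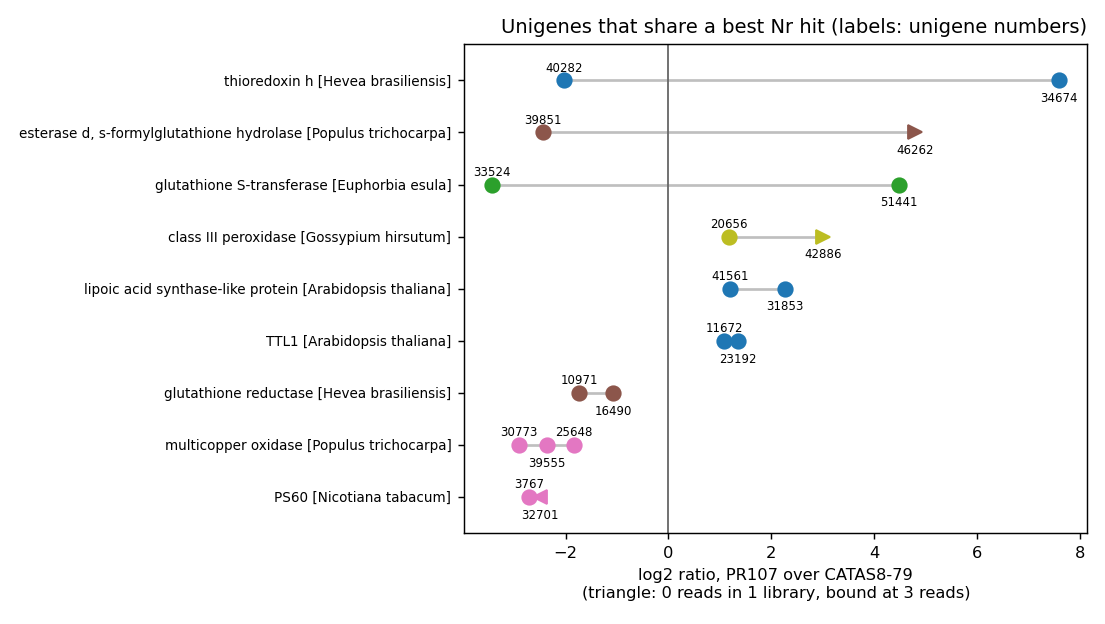
The log2 ratio, PR107 over CATAS8-79, of the 19 members that share 1 of 9 best Nr hits with another member, with triangles where 1 library had 0 reads and the ratio is a bound. The hits for thioredoxin h, S-formylglutathione hydrolase and glutathione S-transferase each join a unigene higher in PR107 with a unigene higher in CATAS8-79, and the other 6 hits lie on 1 side.

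Secreted plant peroxidases of class III oxidise phenols with hydrogen peroxide, among others in the making of lignin. Unigene13679 (1179 bp), Peroxidase 53 by Swissprot, was the only one higher in CATAS8-79. It had 22 reads in PR107 and 429 in CATAS8-79, which is 2.72 RPKM in PR107 and 52.6 RPKM in CATAS8-79, a log2 ratio of -4.27 (interval -4.96 to -3.66). This 19.4-fold difference was the largest of the members higher in CATAS8-79 with reads in both libraries. The other numbered peroxidases went the opposite way. Unigene51773 (Peroxidase 42) had 140 reads in PR107 and 10 in CATAS8-79. Unigene51674 (Peroxidase 25) had 85 reads in PR107 and 6 in CATAS8-79. Unigene51300 (Peroxidase 5) had 35 reads in PR107 and 10 in CATAS8-79. The last of them was unread in CATAS8-79. Unigene42886 (Peroxidase 31) had 24 reads in PR107 and 0 in CATAS8-79, at least 8.06-fold higher in PR107.

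Unigene20656 (Peroxidase 63) was the most abundant of the class III peroxidases by RPKM, with 378 reads in PR107 and 169 in CATAS8-79, which is 182 RPKM in PR107 and 80.9 RPKM in CATAS8-79. Its log2 ratio was 1.17 (interval 0.91 to 1.44). The 6 numbered peroxidases together had 684 reads in PR107 and 624 in CATAS8-79, a log2 ratio of 0.14 (interval -0.02 to 0.30). Summed as RPKM, they reached 244 in PR107 and 139 in CATAS8-79. The single peroxidases thus had larger ratios than their total of reads.

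The class also held 2 unigenes that are not class III peroxidases by name. Unigene8340, whose Nr hit is a mitochondrial cytochrome c peroxidase precursor of castor bean, had 405 reads in PR107 and 187 in CATAS8-79, a log2 ratio of 1.13 (interval 0.87 to 1.38). Unigene50232, with a hit to an acid phosphatase and vanadium-dependent haloperoxidase related protein, had 83 reads in PR107 and 14 in CATAS8-79, a log2 ratio of 2.58 (interval 1.75 to 3.51). Neither had a Swissprot hit.

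The direction of the members moved with the number of the unigene in the assembly. Numbers up to 29886, below the first number missing from the deposited table, formed a first block, in which 52.8% of the called unigenes were higher in PR107. From 29887 to 40539 that share was 19.3%, and from 40540 on it was 90.7%, the split being placed, after the data were seen, where the direction changed most. The first block held 15 members higher in PR107 and 15 higher in CATAS8-79. In the second block 2 were higher in PR107 and 12 in CATAS8-79, and in the third block all 14 were higher in PR107. Of the 9 members with 3 or fewer reads in a library, 0 lay in the first block, 2 in the second and 7 in the third. The part of the numbering in the differences was not tested.

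**Figure D5:**
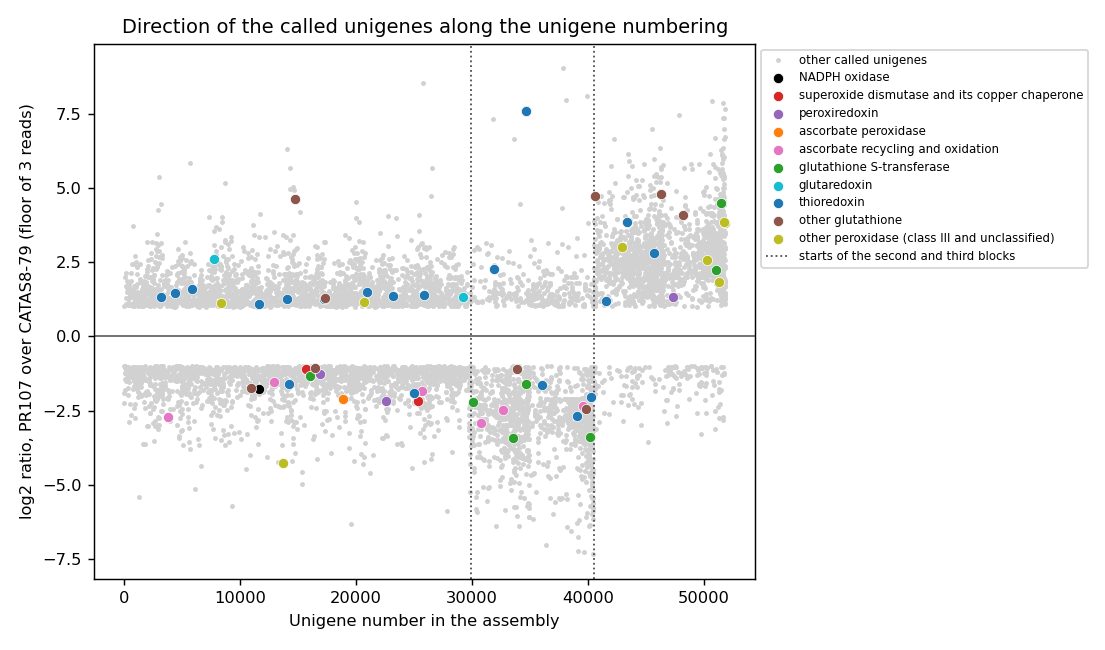
The log2 ratio, PR107 over CATAS8-79, with a floor of 3 reads, against the unigene number for all called unigenes (grey) and the redox members (coloured by class), with dotted lines at the start of the second and of the third block. Beyond 40540 all 14 members lie above 0, and between 29887 and 40539 only 2 of 14 do.

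The members of each block are given here by class, as a description that does not test the part of the numbering. The NADPH oxidase, the dismutase and its chaperone, the ascorbate peroxidase and 3 unigenes of the ascorbate recycling and oxidation class lie there. All were higher in CATAS8-79. The 11 thioredoxins of the first block included 9 higher in PR107 and 2 higher in CATAS8-79, with 4567 reads in PR107 and 1916 in CATAS8-79, a log2 ratio of 1.26 (interval 1.19 to 1.34). Both glutaredoxins also lie in this block. The other glutathione enzymes of the first block divided, with 2 higher in PR107 and 2 higher in CATAS8-79. Unigene34674 lies in the second block and was higher in PR107. In the third block lie 5 of the 7 peroxidases higher in PR107 and both transferases higher in PR107. It also holds 2 of the 3 abundant lactoylglutathione lyase unigenes of PR107. Only 1 transferase lies in the first block, Unigene16035, which was higher in CATAS8-79. The 3 peroxidases of the first block had 805 reads in PR107 and 785 in CATAS8-79, a log2 ratio of 0.05 (interval -0.10 to 0.19).

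Genes next to these systems were counted with search words in the same table. Of 10 unigenes for cysteine and sulfur supply, which feed glutathione synthesis, 2 were higher in PR107 and 8 were higher in CATAS8-79. Among them Unigene14089, the gamma-glutamylcysteine synthetase of H. brasiliensis that makes the precursor of glutathione, had 48 reads in PR107 and 99 in CATAS8-79, a log2 ratio of -1.03 (interval -1.56 to -0.52). Unigene34594, a serine acetyltransferase, had 8 reads in PR107 and 142 in CATAS8-79. Unigene48281, of the same enzyme, had 515 reads in PR107 and 257 in CATAS8-79. Unigene34594 lies in the second block of unigene numbers, where most called unigenes were higher in CATAS8-79. Unigene48281 lies in the third block, where most were higher in PR107. The 4 protein disulfide isomerases were higher in PR107, and both methionine sulfoxide reductases, which repair oxidised methionine, were higher in CATAS8-79.

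Of the copper phenol oxidases, both polyphenol oxidases were higher in PR107 and both laccases in CATAS8-79. Unigene24738, a polyphenol oxidase, had 272 reads in PR107 and 29 in CATAS8-79. Unigene17497, a laccase, had 106 reads in PR107 and 756 in CATAS8-79. A metallothionein, Unigene50135, had 44 reads in PR107 and 1 in CATAS8-79, or 5.47 in log2 (interval 2.92 to 10.8). It lies in the third block of unigene numbers. The words for NADPH supply found 2 unigenes, both higher in PR107. Of these, Unigene23579 is named in Nr for a domain of 6-phosphogluconate dehydrogenase, and Swissprot calls it an uncharacterized oxidoreductase. The 3 for ascorbate synthesis divided into 1 higher in PR107 and 2 higher in CATAS8-79, and the 4 for copper handling into 2 and 2. Of 8 unigenes found with flavonoid or tocopherol words, 5 were higher in PR107. Nr names Unigene10085 and Unigene13187 of these as cinnamoyl-CoA reductase proteins, and also Unigene24747, which was higher in CATAS8-79. The paper places cinnamoyl-CoA reductase in lignin synthesis. The words for alternative oxidases and quinone reductases found 21 unigenes, 14 of them higher in CATAS8-79, but most are subunits of NADH dehydrogenase. Over the 9 lists, 26 of 59 unigenes were higher in PR107, against 55.1% of all called unigenes.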

How the data were processed

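Poly(A) RNA of latex was sequenced with Illumina paired reads as 1 library per clone. The authors assembled unigenes with SOAPdenovo (k-mer 29), placed the reads on them and deposited raw read counts per unigene. Whether reads that fit several unigenes were shared between them is not given in the sources used here. A second deposited unit is RPKM. Recomputed from counts, length and library totals, it differed by at most 5e-05, while the methods name TPM. Per the file headers, lengths are in bp. Columns with the authors' comparison (log2 ratio, direction, p-value, FDR) were left out. Which clone was higher was taken from the reads in the columns that carry each clone's number. The paper's text assigns the larger share of the called unigenes to the other clone, and the columns were followed. Best hits are given for called unigenes only, of which 1811 lack an Nr and 3734 a Swissprot hit.

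Members were found by 9 search words in the text before the first ">" (Nr) or "OS=" (Swissprot) and put in 13 classes, 10 of which had members. The class comes from the Swissprot text, or else from Nr. The members, classes and lists were chosen with earlier results of these data known. Named were all members of classes of up to 6, in larger classes the 4 with most reads and the 2 at each end of the log2 ratio, and the members the paper names or that share a Swissprot hit in opposite directions. The other 19 were named after their values were seen. No count test was run, since edgeR's quasi-likelihood test could not be fitted with 1 library per group and the members were chosen by the same contrast. With 0 reads in a library, the difference is a bound against 3 reads. With 1 to 3 reads the ratio is given with its interval. In medians, counts under 3 were set to 3. The libraries carry no stated molecular identifiers, and PCR reads are not independent molecules.

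Alternatives were TMM (edgeR 4.0.16) and median-ratio (DESeq2 1.42.0) scaling, filters on reads and length, and other sums. Of the unigene identifiers, 0 were found among 50196 RefSeq genes. Software was R 4.3.3, scipy 1.17.1, pandas 2.3.3, numpy 2.4.6 and matplotlib 3.10.9 under Python 3.11.15.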

Additional observations from a re-analysis of the deposited data

How the results depend on the processing

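Scaling by TMM or median-ratio factors shifted all log2 ratios by -0.046 or -0.029 and changed no direction among the members. The 31 members higher in PR107 became 30 of 56 with at least 20 reads, 23 of 47 with at least 300 bp, 23 of 41 with 1 vote per best Swissprot hit, 24 of 46 with Swissprot text alone and, chosen after seeing the data, 15 of 30 in the first block of unigene numbers. With RPKM summed in place of reads, the log2 ratio was -0.24 for peroxiredoxins, -2.09 for ascorbate recycling and oxidation, 1.56 for thioredoxins and 1.02 for the other peroxidases. Without its member with the most reads, a class had a log2 ratio of 0.20 for peroxiredoxins (reversed, interval -0.06 to 0.45), -1.11 for superoxide dismutase and chaperone, -2.57 for ascorbate recycling and oxidation, 2.60 for glutaredoxins, 1.06 for thioredoxins, 0.60 for the other glutathione enzymes and 0.28 for the other peroxidases, each by construction from fewer members. No paired analysis was possible because each clone has 1 library. The spread between trees or libraries of a clone is unknown, and redox unigenes outside the called table were not classified.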
